A study of Danio rerio with 10 samples.

Results

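Of the 32057 genes counted in every library, 5 encode digestive proteases of the exocrine pancreas and are described below: the trypsin gene prss59.1 (ENSDARG00000079274), the chymotrypsinogen B genes ctrb.1 (ENSDARG00000090428), ctrb.2 (ENSDARG00000093844) and ctrb.3 (ENSDARG00000039730), and the chymotrypsin-like gene ctrl (ENSDARG00000068680). They were selected by identifier because their counts at 2 days post fertilization (dpf) were much lower in mutants than in WT. The 2 dpf difference between mutants and WT, and every difference between ages, is therefore given as a description without a test. Tests of the 5 genes against WT were made on the 5 dpf libraries, whose values the selection rule did not use. The mutant groups at 2 dpf were also compared with each other. Earlier results of these data were known when the genes were chosen.

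RNA was extracted from pools of 30 to 35 whole zebrafish embryos and poly(A)-selected, with 2 libraries for each of 5 groups. At 5 dpf these were rpgrip1l-/- larvae, whose tail form was not stated, and WT larvae. At 2 dpf they were rpgrip1l-/- embryos with a curled-down tail (CDT), rpgrip1l-/- embryos sorted as normal-looking, and WT embryos. rpgrip1l encodes a protein of the transition zone at the base of the cilium, and the mutants carry a CRISPR/Cas9 frameshift allele in all cells. The study found no nonsense-mediated decay of this allele, so the level of its transcript does not check the labels. All mutants came from homozygous parents and all WT from AB-strain parents, both in timed matings, so effects of the parents and of the genotype of the embryos cannot be told apart. Nothing states that the pools of a group came from separate clutches, and p-values measure only the spread between these pools.

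Acinar cells make digestive enzymes as inactive zymogens, store them in granules and release them into the gut. There trypsin, once activated by enteropeptidase, activates further trypsin and the other protease zymogens, among them the chymotrypsinogens and carboxypeptidases. In zebrafish the acinar cells arise from the ventral pancreatic bud, under the transcription factor Ptf1a, and turn on zymogen genes late in embryonic development, before the larva feeds. In RNA of whole embryos, fewer acinar cells and less zymogen RNA per cell cannot be told apart.

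The libraries held 9101264 to 17536165 counts on genes. Levels are given as CPM (counts per 1000000 counts of a library, with library sizes scaled by the trimmed mean of M-values, TMM), and they compare libraries within a gene, not genes with each other, because transcript lengths were not used. Of 18 identifiers for markers of muscle, blood, lens, retina, brain, skin, skeleton and vessels, 16 had at least 10 counts in every library, so these are libraries of whole animals. In a RefSeq gene table of a later assembly than the one used for alignment, ctrb.3, ctrb.2 and ctrb.1 follow each other directly, and prss59.1 lies beside another trypsin gene, prss59.2, while ctrl stands apart from them. Reads that aligned to several places, 3.20% to 6.31% per library, were not counted. At 2 dpf this share was 4.95% and 6.31% in CDT and 6.17% and 6.03% in normal libraries, against 4.05% and 3.48% in WT. At 5 dpf it was 3.40% and 3.61% in rpgrip1l-/- libraries and 3.88% and 3.20% in WT. Whether copies in these clusters lost reads in this way was not tested.

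At 2 dpf the 5 genes were expressed in WT embryos and were at or next to 0 in every rpgrip1l-/- library. The trypsin gene prss59.1 had 0 and 0 counts in rpgrip1l-/- CDT libraries and 0 and 0 in rpgrip1l-/- normal libraries, against 312 and 318 in WT. No read of this gene was found in any mutant pool at this age. The chymotrypsinogen gene ctrb.1 had 0 and 1 counts in CDT libraries and 0 and 0 in normal libraries, against 125 and 107 in WT. Its neighbour ctrb.2 had 0 and 0 counts in CDT libraries and 0 and 0 in normal libraries, against 48 and 44 in WT. The third gene of the cluster, ctrb.3, had 0 and 1 counts in CDT libraries and 0 and 0 in normal libraries, against 106 and 98 in WT. All 3 genes of the cluster were thus near the detection limit in mutants while the WT pools agreed closely. The chymotrypsin-like gene ctrl had 0 and 0 counts in CDT libraries and 1 and 0 in normal libraries, against 44 and 44 in WT. Together the 5 genes had 2 counts in CDT and 1 in normal embryos, against 1246 in WT embryos.

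**Figure D1:**
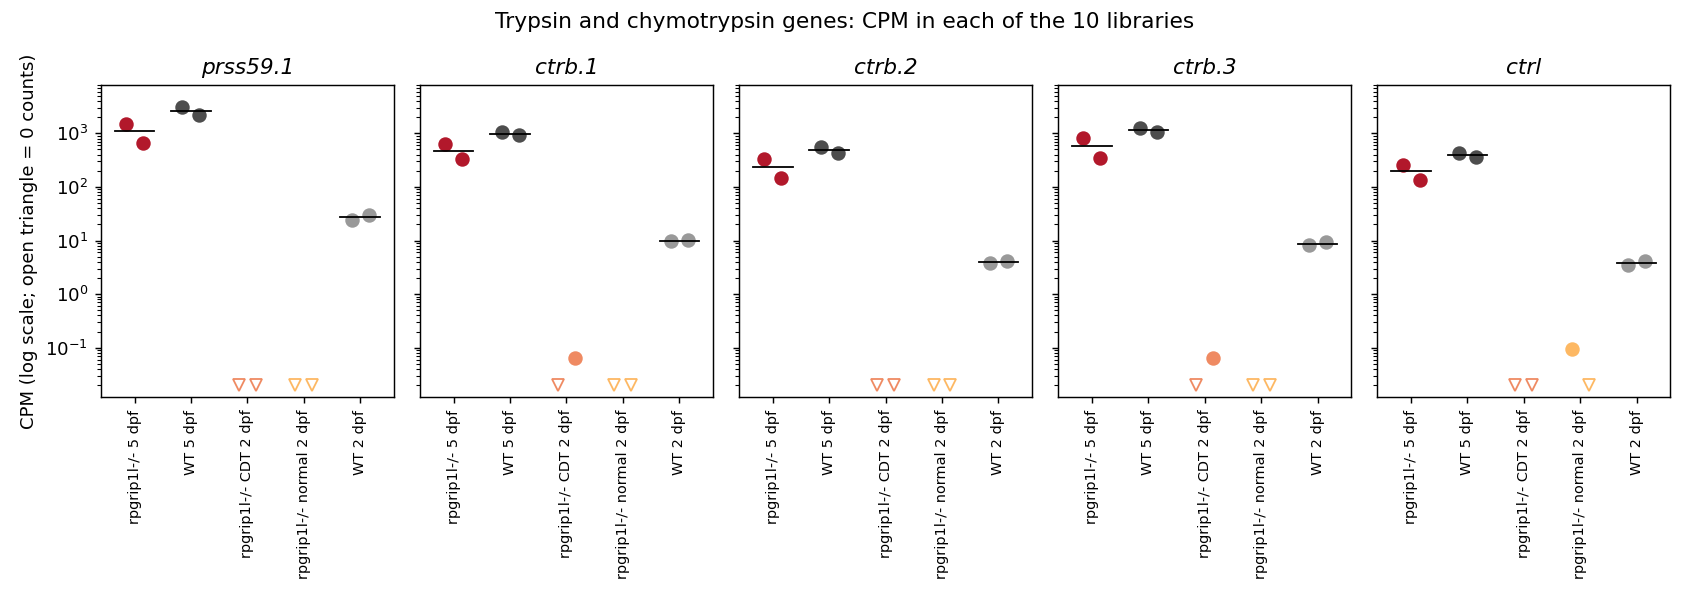
CPM on a log axis of each of the 5 genes in each of the 10 libraries, with points for libraries, open triangles for libraries with 0 counts and black lines for group means where no library is at 0. The 2 dpf mutant libraries lie at 0 or at 1 count, the 2 dpf WT libraries between 3.45 and 29.9 CPM, and both 5 dpf mutant libraries below both WT libraries for each gene.

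The size of the 2 dpf drop is limited by these low counts. A count of 0 in 1 library allows up to 3 counts, which is 0.177 to 0.279 CPM in the mutant libraries at 2 dpf. With 3 counts allowed over a group of 2 libraries, prss59.1 was at least 293-fold lower in CDT embryos and at least 233-fold lower in normal embryos than in WT. By the same floor, ctrb.2 was at least 42.8-fold lower in CDT embryos and at least 34.1-fold lower in normal embryos, and ctrl was at least 40.9-fold lower in CDT embryos. In normal embryos ctrb.1 was at least 86.0-fold lower and ctrb.3 at least 75.6-fold lower than in WT. Where 1 read was found, the ratio comes with a wide 95% interval (Clopper-Pearson, counting error only). The WT to CDT ratio was 324 for ctrb.1 (57.6 to 12846) and 285 for ctrb.3 (50.5 to 11302), and the WT to normal ratio was 97.8 for ctrl (17.1 to 3907). The fitted log2 fold changes had a median over the 5 genes of −8.64 for CDT and −9.85 for normal embryos, but with so many zeros they depend on the fit. The medians with each gene at its ratio or bound were −8.15 and −6.43. These 2 medians mix ratios from 1 read with bounds at 3 counts, so they do not rank CDT against normal embryos. Every 2 dpf mutant library lay below both WT libraries for each gene, as it did for 38.5% of all genes tested in CDT embryos and 39.5% in normal embryos. All 5 genes passed the filter on low counts at this age only through WT.

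Whether the 5 genes differed with the tail form of the mutants could not be measured. With 0 or 1 count of each gene in every rpgrip1l-/- CDT and rpgrip1l-/- normal library, a difference was not detectable at this depth. The comparison by edgeR's quasi-likelihood test, which called 0.952% of all genes tested and 0 of the 5 (0 also at an unadjusted p under 0.05 with edgeR or DESeq2), could not have shown one.

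Most other genes tested of a pancreatic secretory list were lower in 2 dpf mutants as well, but several kept more reads than the 5 genes did. The 5 genes were chosen for their low counts in these mutants, so such a difference was built in. The list was chosen with earlier results of these data known and has 24 identifiers. Of these, 7 reached 10 counts in both CDT libraries and 3 in both normal libraries, against 14 in both WT libraries. The list also holds tmprss15, which is made by the intestine and had 34 counts over CDT and 28 over normal libraries, against 16 in WT. Of the 14 that could be tested, 11 were called lower and 1 higher in CDT embryos, and 12 lower and 0 higher in normal embryos (edgeR, adjusted p under 0.05). Over all genes tested, 20.4% were called lower in CDT embryos and 20.4% in normal embryos, and 20.0% and 19.2% were called higher, so calls are common at this age. The list had a median log2 fold change of −3.61 in CDT and −4.13 in normal embryos, against 0.03 and 0.01 over all genes tested. Several genes passed the filter only through WT, where they are high, which sets part of these counts and medians, so they are a description and support nothing about the list. Of the 3 genes with at least 10 counts in every 2 dpf library, 2 were called lower in each mutant group, and 1 was called higher in CDT embryos.

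The trypsin gene prss59.2 (ENSDARG00000073742) came closest to its neighbour prss59.1. It had 2 and 5 counts in CDT libraries and 2 and 2 in normal libraries, against 654 and 627 in WT (log2 fold changes −7.87 ± 0.24 and −8.33 ± 0.27, SE, adjusted p = 3.03e-30 and 3.13e-29 by edgeR). Because prss59.2 passed the filter on low counts only through WT, these p-values are a description. The third trypsin gene, prss1 (ENSDARG00000042993), had 20 and 28 counts in CDT libraries and 7 and 26 in normal libraries, against 275 and 231 in WT (log2 fold changes −3.79 ± 0.22 and −4.02 ± 0.24, SE, adjusted p = 7.38e-19 and 1.52e-18). Its fall was thus smaller on the log2 scale, with a WT to CDT ratio of counts of 14.7 (95% interval 10.9 to 20.2). Over the 4 mutant libraries at 2 dpf, prss1 had 81 counts while the 5 genes had 3 between them, a gap that the choice of the 5 genes favours. In the 6 other libraries, at either age, prss1 had 0.378 to 0.433 counts for each count of the 5 genes.

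Of the elastases, which cleave elastin and other proteins, ela2, ela2l and ela3l were called lower in both mutant groups (edgeR, adjusted p of at most 2.67e-12), and the 4 others of the list were too low to test at 2 dpf. The elastase gene ela3l had 1 and 2 counts in CDT libraries and 2 and 0 in normal libraries, against 91 and 59 in WT. The genes ela2 and ela2l kept some reads: ela2l had 15 and 17 counts in CDT libraries and 8 and 8 in normal libraries, against 197 and 195 in WT. The carboxypeptidase gene CPB1 (ENSDARG00000045442) had 7 and 12 counts in CDT libraries and 4 and 14 in normal libraries, against 65 and 62 in WT (adjusted p = 3.46e-09 and 3.28e-08). The smallest falls among the proteases were those of CPA1 (ENSDARG00000021339), which had 93 and 54 counts in CDT libraries and 27 and 39 in normal libraries, against 139 and 122 in WT (log2 fold changes −1.24 ± 0.20 and −2.06 ± 0.23, SE, adjusted p = 2.80e-06 and 5.90e-10 by edgeR). The symbol CPA1 is shared with ENSDARG00000030915, which had 1 and 0 counts in CDT libraries and 0 and 0 in normal libraries, against 5 and 3 in WT. Of the amylases, which digest starch, amy2a was at 0 in all 4 mutant libraries and had 10 and 20 counts in WT, and amy2al2 had 2 and 4 counts in CDT libraries and 1 and 0 in normal libraries, against 36 and 26 in WT (adjusted p = 7.87e-07 and 8.86e-08 for amy2al2, while amy2a was not tested). The phospholipase gene PLA2G1B (ENSDARG00000009153) passed the filter only through WT, as did ela2, ela3l and amy2al2, whose adjusted p are thus a description. PLA2G1B had 0 and 0 counts in CDT libraries and 1 and 0 in normal libraries, against 12 and 10 in WT. The protein disulfide isomerase gene pdia2 was called lower in both mutant groups (log2 fold changes −0.81 ± 0.31 in CDT and −1.44 ± 0.34 in normal embryos, SE, adjusted p = 0.0292 and 0.000674), though in CDT embryos not with DESeq2 (adjusted p = 0.131). The trypsin inhibitor gene spink4 was called lower in normal embryos only (log2 fold change −2.16 ± 0.49, SE, adjusted p = 0.000399, against −0.58 ± 0.39 and adjusted p = 0.235 in CDT embryos), and its CDT to normal difference was not called (adjusted p = 0.148). The gene called higher in CDT embryos was amy2al1, which is named after its values were seen because it is the exception: it had 91 and 88 counts in CDT libraries and 40 and 55 in normal libraries, against 24 and 33 in WT (log2 fold changes 1.24 ± 0.27 and 0.65 ± 0.29, SE, adjusted p = 0.000182 and 0.0699).

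**Figure D2:**
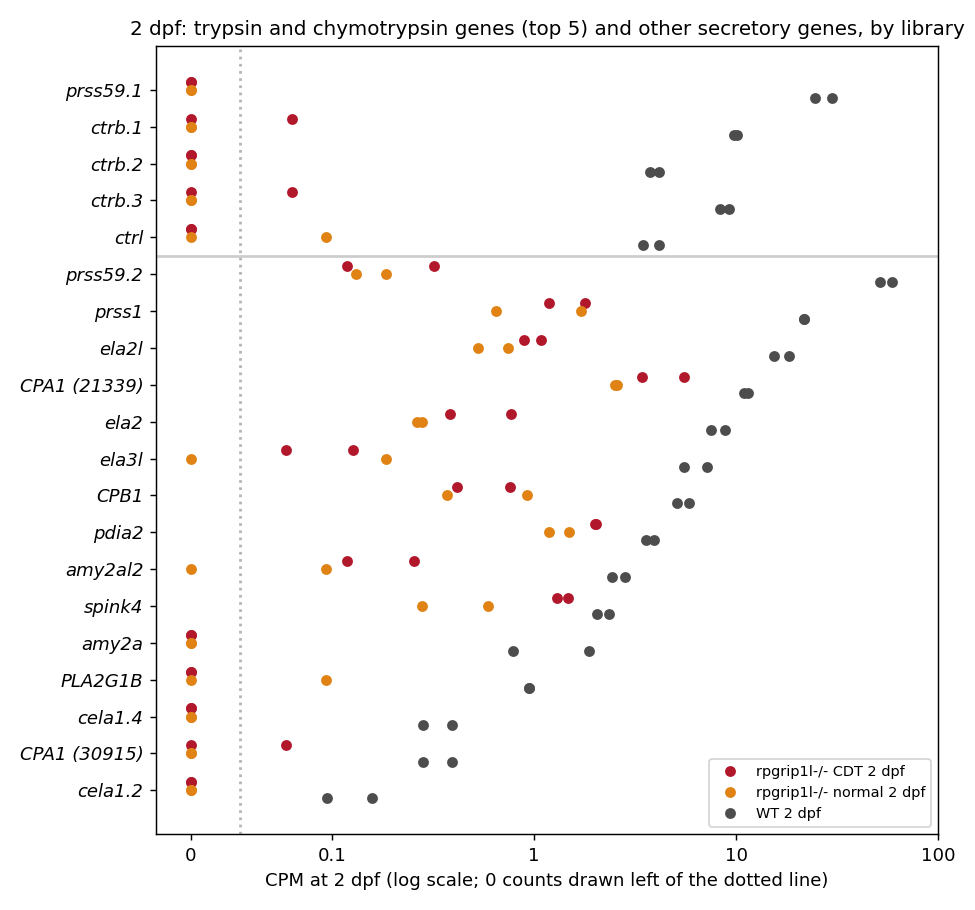
CPM at 2 dpf on a log axis for the 5 genes (top) and 15 other secretory genes ordered by their WT level, with 2 points per group for the 2 libraries and libraries with 0 counts drawn left of the dotted line. The mutant points of prss59.1, ctrb.1, ctrb.2, ctrb.3 and ctrl are at 0 or 1 count. Those of prss1, prss59.2, ela2, ela2l, CPA1 (ENSDARG00000021339), CPB1, pdia2 and spink4 lie above 0 in every mutant library.

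Of the genes for transcription factors of the acinar lineage, PTF1A and RBPJL were not lower in 2 dpf mutants. Ptf1a and Rbpjl are parts of the complex that drives zymogen genes in mammals, and Nr5a2 is a nuclear receptor that acts with it. PTF1A had 90 and 107 counts in CDT libraries and 66 and 87 in normal libraries, against 56 and 45 in WT (log2 fold changes 0.56 ± 0.22 and 0.52 ± 0.23, SE, adjusted p = 0.0377 and 0.0636 by edgeR, DESeq2 adjusted p = 0.170 and 0.207). RBPJL had 165 and 141 counts in CDT libraries and 115 and 198 in normal libraries, against 74 and 75 in WT (log2 fold changes 0.63 ± 0.18 and 0.97 ± 0.18, SE, adjusted p = 0.00439 and 1.94e-05). RBPJL thus rose in both mutant groups, and PTF1A passed the threshold in CDT embryos with edgeR alone. NR5A2 had log2 fold changes of 0.63 ± 0.31 and 0.55 ± 0.32 (SE, adjusted p = 0.101 and 0.173), and pdx1, a pancreatic progenitor gene, −0.54 ± 0.36 and −0.48 ± 0.37 (SE, adjusted p = 0.231 and 0.319). BHLHA15, whose product controls granule maturation in mammals, had 0 to 11 counts per 2 dpf library and was not tested. Of the 9 genes of this list that were tested, 2 were called higher and 2 lower in CDT embryos and 1 higher and 2 lower in normal embryos, shares close to the 20.4% lower and 20.0% (CDT) or 19.2% (normal) higher of all genes tested. The genes called lower in both groups were XBP1, a regulator of the secretory pathway (log2 fold changes −0.63 ± 0.08 and −0.60 ± 0.09, SE), and GATA6, which acts in endoderm (−0.64 ± 0.12 and −0.95 ± 0.13, SE), and both are named after their values were seen. With library size alone as scaling, XBP1 was no longer called in normal embryos (adjusted p = 0.101) and GATA6 no longer in CDT embryos (adjusted p = 0.189). PTF1A and RBPJL are also expressed outside the pancreas, so their level in whole embryos is not that of acinar cells alone.

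With TMM scaling, most liver and intestine markers tested were called lower in 2 dpf mutants. Their median falls were smaller than those of the 5 genes. The 5 genes were chosen for their drop at this age, so this says nothing particular about them. Markers of the endocrine pancreas and of other tissues were called in both directions. Of 14 liver markers tested, 10 were called lower in CDT embryos, and 12 lower and 1 higher in normal embryos, with median log2 fold changes of −0.40 and −0.56, against the 20.4% of all genes called lower in each group. The summed level of the liver list was 5385 to 6253 CPM in CDT libraries and 5074 to 5658 CPM in normal libraries, against 7792 to 7865 CPM in WT. Falls differed within the list. The highest gene, tfa, had a mean of 2197 CPM in CDT and 1908 in normal embryos, against 2824 in WT. By contrast, fabp10a had 41 counts over CDT and 17 over normal libraries, against 156 in WT, and TTR had 3 and 5, against 24. With library size alone as scaling, which puts the median of all genes at 0.48 and 0.46, the liver medians were 0.05 and −0.11, and 3 liver markers were called lower and 2 higher in CDT embryos and 4 lower and 1 higher in normal embryos. Of 10 intestine markers tested, 9 were called lower in each mutant group, with medians of −0.95 and −1.16 (8 in each group with library size alone), and the summed level was 7293 to 7955 CPM in CDT libraries and 6970 to 7353 CPM in normal libraries, against 14439 to 16093 CPM in WT. Of 8 endocrine pancreas markers tested, 3 were called lower and 2 higher in CDT embryos and 1 lower and 2 higher in normal embryos, not far from the shares over all genes, and with library size alone 1 lower and 4 higher in each group. Their summed level was 85.8 to 90.9 CPM in CDT libraries and 84.8 to 95.0 CPM in normal libraries, against 96.5 to 106 CPM in WT. Of 17 identifiers for markers of other tissues, 9 were called lower and 6 higher in CDT embryos and 9 lower and 5 higher in normal embryos. The summed level of that list was 52627 to 52946 CPM in CDT libraries and 51719 to 55718 CPM in normal libraries, against 80512 to 86318 CPM in WT. The keratin gene krt4 was its largest part, at a mean of 31474 CPM in CDT and 31288 in normal embryos, against 51913 in WT. The summed levels rest on TMM scaling and were not computed with library size alone. The endocrine and other-tissue medians in CDT embryos, −0.10 and −0.32, were 0.35 and 0.13 with library size alone, and in normal embryos −0.02 and −0.46 were 0.43 and −0.01. Among the liver, intestine and endocrine lists only ghrl and MEP1B (ENSDARG00000037533) in CDT libraries and chia.1 in normal libraries were at 0 in every library of a group. Other markers came close to 0. The intestine marker FABP6 had 1 count over CDT and 3 over normal libraries, against 73 in WT, and chia.2 had 3 and 3, against 197. The retina marker opn1mw1 had 3 and 1, against 47. FABP6, chia.2 and opn1mw1 passed the filter on low counts only through WT, where they are high. This sets part of the counts called and of the medians of their lists, which are thus a description. Still, 8 of 14 intestine identifiers had at least 10 counts in both libraries of each mutant group. The part of organ size or developmental stage in the drop of the 5 genes was not tested.

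Between 2 and 5 dpf the 5 genes turned on steeply in both genotypes. In WT the mean level of prss59.1 was 2635 ± 653 CPM at 5 dpf and 27.2 ± 3.8 CPM at 2 dpf (SD, n = 2 each). The WT level of ctrb.1 was 991 ± 108 CPM at 5 dpf and 9.92 ± 0.17 CPM at 2 dpf, that of ctrb.2 was 486 ± 84 and 3.95 ± 0.26 CPM, and that of ctrb.3 was 1160 ± 173 and 8.76 ± 0.63 CPM (SD, n = 2 each). For ctrl the WT level was 398 ± 49 CPM at 5 dpf and 3.79 ± 0.48 CPM at 2 dpf (SD, n = 2 each). The WT rise was thus close to 100-fold in each gene, with 97.3-fold for prss59.1 as the smallest and 133-fold for ctrb.3 as the largest. The fitted log2 rises were 6.60 to 7.05, each with an SE between 0.22 and 0.28, and had a median of 6.72 against 0.03 over all genes tested. In mutants the rise can be given only as a bound or, where 1 read was found at 2 dpf, as a ratio with a wide interval. By the 3-count floor, prss59.1 at 5 dpf was at least 11766-fold above rpgrip1l-/- CDT embryos and at least 9368-fold above rpgrip1l-/- normal embryos. For ctrb.2, which had 0 counts in all 4 younger mutant libraries, these bounds were 2577-fold and 2052-fold. Over CDT embryos the ratio was 15521 for ctrb.1 (95% interval 2785 to 613090), and over normal embryos it was 5068 for ctrl (909 to 200210). The fitted median log2 rises in mutants, 14.41 over CDT and 15.70 over normal embryos, rest on zeros and are no measure of size. In WT, prss59.2 had a mean of 5818 CPM at 5 dpf and 55.1 CPM at 2 dpf, and prss1 of 2214 CPM at 5 dpf and 21.6 CPM at 2 dpf. Of 21 other secretory genes, 19 were called higher and 1 lower at 5 dpf, against 31.3% and 29.5% of all genes tested, but only 14 of the 21 passed the filter on low counts at 2 dpf, so this count is a description.

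At 5 dpf all 5 genes were strongly expressed in both genotypes and lower in rpgrip1l-/- larvae. For prss59.1 the counts were 19975 and 8923 in rpgrip1l-/- libraries, against 46777 and 34456 in WT, which is 1499.5 and 665 CPM against 3097 and 2174 CPM. On the log2 scale the difference was −1.28 ± 0.25 (SE), and edgeR called it (adjusted p = 0.00905). For ctrb.1 the levels were 626 and 325 CPM in rpgrip1l-/- libraries, against 1067 and 915 CPM in WT (log2 fold change −1.06 ± 0.20, SE, adjusted p = 0.00730). Both mutant libraries lay below both WT libraries for these genes, and the second mutant library was the lowest. For ctrb.2 the levels were 325 and 149 CPM in rpgrip1l-/- libraries, against 545 and 426 CPM in WT (log2 fold change −1.03 ± 0.24, SE, adjusted p = 0.0225). For ctrb.3 they were 813 and 351 CPM in rpgrip1l-/- libraries, against 1282 and 1038 CPM in WT (log2 fold change −0.99 ± 0.25, SE, adjusted p = 0.0351). For ctrl they were 258 and 132 CPM in rpgrip1l-/- libraries, against 432 and 363 CPM in WT (log2 fold change −1.03 ± 0.21, SE, adjusted p = 0.0105). All 5 genes were thus called lower, against 2.56% of all genes tested, and the groups of all 5 did not overlap, as for 24.3% of all genes tested.

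This call depends on the test and on single libraries. DESeq2 gave nearly the same fold changes, with adjusted p of 0.324 to 0.612, and called 0 of the 5 genes, 3 of them with an unadjusted p under 0.05. With edgeR, leaving out WT replicate 1 left 2 genes called, ctrb.1 and ctrl, and leaving out rpgrip1l-/- replicate 2 left 4, with ctrb.3 at an adjusted p of 0.0634. The median log2 fold change was −0.62 without rpgrip1l-/- replicate 2 and −1.71 without rpgrip1l-/- replicate 1. The direction was the same in each of these fits.

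**Figure D3:**
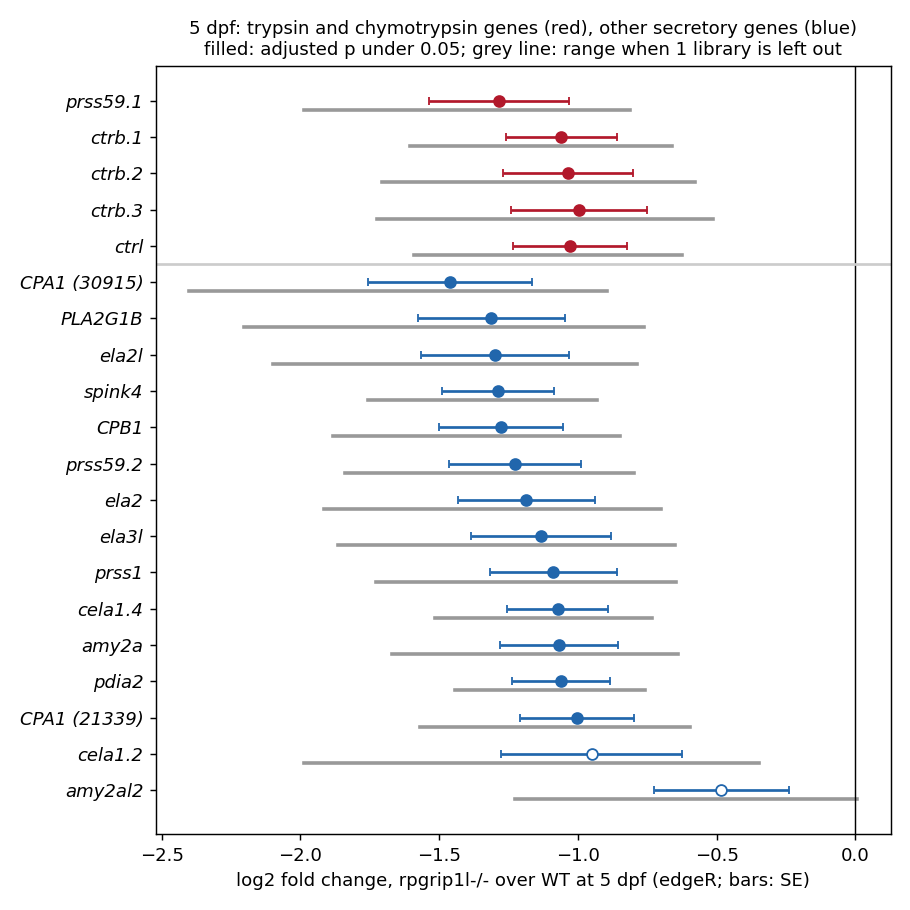
Log2 fold change of rpgrip1l-/- over WT at 5 dpf for the 5 genes (red) and 15 other secretory genes (blue), with SE bars, filled points for an adjusted p under 0.05 by edgeR and grey lines for the range when 1 library is left out. The 5 genes lie between −1.28 and −0.99, and their grey lines stay below 0.

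The lag of the mutants was smaller at 5 than at 2 dpf. At 5 dpf the rpgrip1l-/- mean was 41.1% of the WT mean for prss59.1 and 48.0% to 50.2% for the 4 other genes. On the log2 scale, this deficit equals 14.1% to 19.4% of the WT rise between the ages, but 7.25% to 12.3% without rpgrip1l-/- replicate 2 and 23.7% to 30.1% without rpgrip1l-/- replicate 1. The mean level of rpgrip1l-/- larvae at 5 dpf was 39.8 to 66.4 times that of WT embryos at 2 dpf, with 55.2 to 92.8 times in replicate 1 and 24.5 to 40.1 times in replicate 2. For the 5 genes the difference in lag between the ages was not tested, because the 2 dpf values chose them.

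The other secretory genes had similar fold changes at 5 dpf. Of 21 secretory genes tested, 14 were called lower and 0 higher, against 2.56% and 1.28% of all genes tested, with a median log2 fold change of −1.09 against −0.00 over all genes tested. DESeq2 called 0 of these 21 genes, 12 of them with an unadjusted p under 0.05, and edgeR called 6 without WT replicate 1. The neighbour prss59.2 had a log2 fold change of −1.23 ± 0.24 and prss1 of −1.09 ± 0.23 (SE, adjusted p = 0.00866 and 0.0141 by edgeR). The largest fold changes among the genes named were those of CPA1 (ENSDARG00000030915), −1.46 ± 0.30, PLA2G1B, −1.31 ± 0.26, and ela2l, −1.30 ± 0.27 (SE, adjusted p = 0.0110, 0.0108 and 0.0125). CPB1, spink4, ela2, ela3l, cela1.4, amy2a, pdia2 and CPA1 (ENSDARG00000021339) were called lower as well, with the largest log2 fold changes in spink4, −1.29 ± 0.20, and CPB1, −1.28 ± 0.22 (SE). The elastase gene cela1.2 (−0.95 ± 0.33, SE, adjusted p = 0.131) and amy2al2 (−0.48 ± 0.24, SE, adjusted p = 0.338) did not pass the threshold. Another 5 genes tested, all of low level, were not called; they included tmprss15, which encodes enteropeptidase and is made by the intestine, with 22 and 18 counts in rpgrip1l-/- libraries against 16 and 29 in WT. Of 9 transcription factor genes tested at 5 dpf, 0 were called with edgeR or with DESeq2 (2 and 1 had an unadjusted p under 0.05), and PTF1A had 22 and 10 counts in rpgrip1l-/- libraries, against 19 and 36 in WT. RBPJL had a log2 fold change of 0.50 ± 0.18 and pdx1 of −0.66 ± 0.24 (SE, adjusted p = 0.146 and 0.158).

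The mutant libraries at 5 dpf differed from each other in these genes. The level of the 5 genes in rpgrip1l-/- replicate 2 was 0.432 to 0.520 times that in replicate 1, while WT replicate 2 had 0.702 to 0.857 times the level of WT replicate 1. Against the WT mean, rpgrip1l-/- replicate 1 had 56.9% to 70.1% and replicate 2 had 25.2% to 33.2%. The median log2 ratio of rpgrip1l-/- replicate 2 to replicate 1 was −1.13 over the 5 genes, −1.03 over 21 secretory genes and −0.00 over all 20071 genes tested. It was −0.51 over 15 liver markers, all of which were lower in replicate 2, −0.46 over 7 endocrine markers and −0.14 over 14 intestine markers. Of the liver and intestine markers, 5 each were called lower in rpgrip1l-/- larvae and 0 higher, and of 7 endocrine markers 2 were called lower and 0 higher, while of 18 identifiers for markers of other tissues 1 was called lower and 2 higher, against 2.56% of all genes called lower and 1.28% higher. For liver the count lower was 1 with DESeq2 and 2 with library size alone. For intestine it stayed at 5 with both, and for endocrine markers it was 1 with both. Library size alone also called 1 intestine, 1 endocrine and 9 other-tissue markers higher. The summed level of the markers tested was 3977 and 2689 CPM in rpgrip1l-/- libraries against 4061 and 4467 CPM in WT for liver, 7825 and 6170 CPM against 9052 and 9384 CPM for intestine, and 172 and 144 CPM against 151 and 172 CPM for endocrine markers, and no liver or intestine marker was at 0. In rpgrip1l-/- replicate 1 each of the 5 genes lay below both WT libraries, as did 16 of 21 secretory genes. So did 11 of 15 liver, 10 of 14 intestine and 2 of 7 endocrine markers, and 5 of 18 identifiers for other tissues. The share over all genes was not computed for this library alone, so nothing is concluded from these counts.

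**Figure D4:**
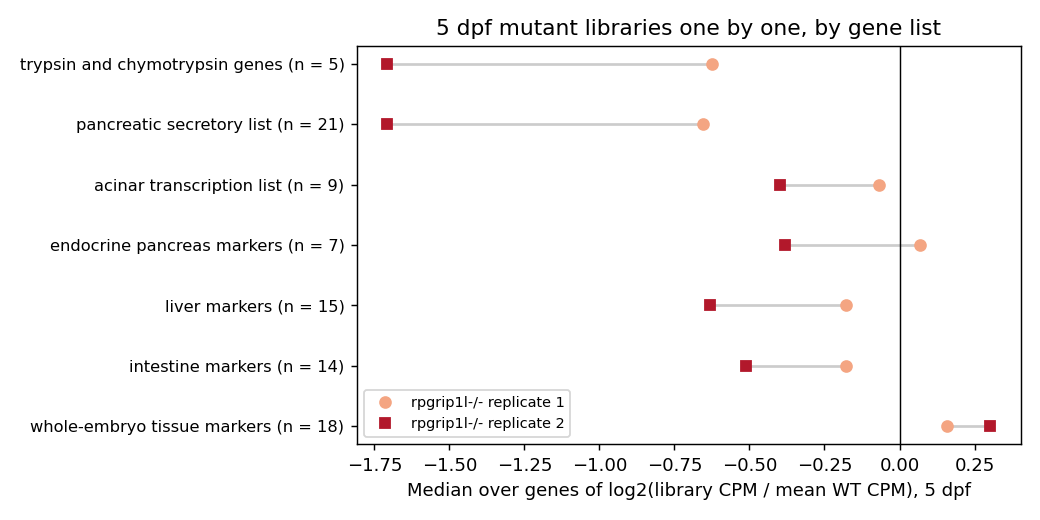
Median over the genes of each list of the log2 ratio of each 5 dpf rpgrip1l-/- library to the WT mean, with circles for replicate 1 and squares for replicate 2. The 5 genes and the secretory list stand at −0.62 and −0.66 in replicate 1 and at −1.71 in replicate 2, below every other list in both libraries.

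Wherever the genes were on, prss59.1 made up the largest share of the trypsin and chymotrypsin counts. The shares of prss59.1, ctrb.2 and ctrb.3 shifted between groups. Of the counts of the 5 genes, prss59.1 took 41.8% ± 1.1 in rpgrip1l-/- larvae and 46.2% ± 2.8 in WT larvae at 5 dpf, and 50.6% ± 2.1 in WT embryos at 2 dpf (SD, n = 2 each). The share of ctrb.3 was 22.4% ± 1.0 in rpgrip1l-/- larvae and 20.5% ± 0.8 in WT larvae, and 16.4% ± 0.5 in WT embryos at 2 dpf. For ctrb.2 the share was 9.20% ± 0.05 in rpgrip1l-/- larvae and 8.58% ± 0.13 in WT larvae, and 7.38% ± 0.25 in WT embryos at 2 dpf. The shares of ctrb.1 (16.6% to 20.1% over the 6 libraries) and ctrl (6.73% to 8.15%) overlapped between rpgrip1l-/- and WT larvae. The mutant and WT shares at 5 dpf did not overlap for prss59.1, ctrb.2 and ctrb.3, and with 2 libraries against 2 the two-sided exact permutation test cannot give a p below 0.333, which it gave for these 3. The ratio of prss59.2 to prss59.1 counts was 2.23 and 2.44 in rpgrip1l-/- larvae, against 2.27 and 2.12 in WT larvae, and 2.10 and 1.97 in WT embryos at 2 dpf. As a part of all counts on genes, the 5 genes made up 0.336% and 0.155% in rpgrip1l-/- larvae and 0.553% and 0.451% in WT larvae.

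**Figure D5:**
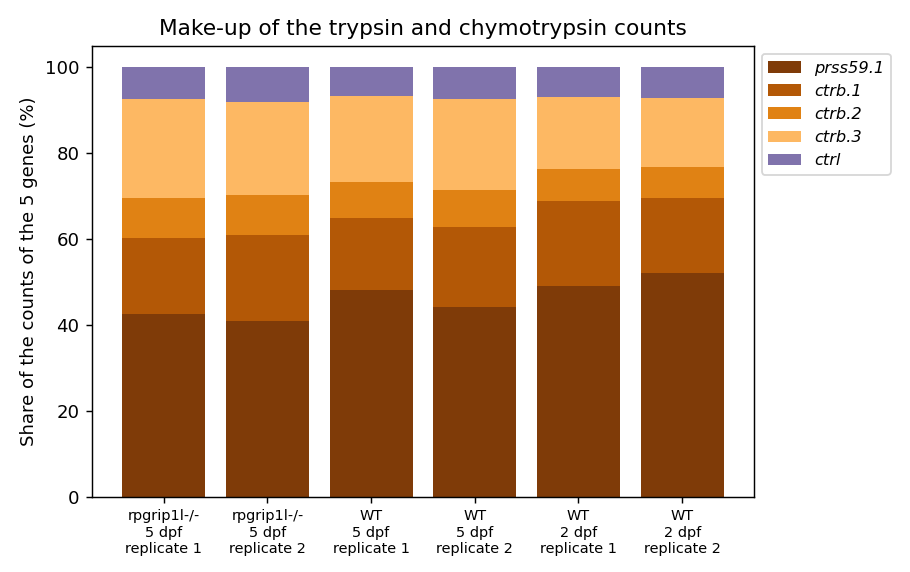
Share of each gene, in percent, in the summed counts of the 5 genes for the 6 libraries with counts, as stacked bars of height 100. The share of prss59.1 is 41.0% to 42.6% in rpgrip1l-/- larvae, 44.2% to 48.2% in WT larvae and 49.1% to 52.0% in WT embryos at 2 dpf.

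The genes whose course over the 10 libraries was most like that of the 5 genes were not all pancreatic. Likeness was measured as the root mean square difference between centred log2 CPM values (prior count 2) and the median course of the 5 genes, over 21011 other genes. The closest was chia.2 (ENSDARG00000099185), which encodes a chitinase, at a difference of 0.44. It had 1 and 2 counts in CDT libraries and 2 and 1 in normal libraries, against 95 and 102 in WT, and 7567 and 6666 counts in rpgrip1l-/- libraries at 5 dpf, against 12313 and 14567 in WT. It is a marker in the intestine list, and unlike the 5 genes it differed little between the mutant libraries at 5 dpf. Next came ela3l at 0.54, prss59.2 at 0.75, the cone opsin gene OPN1SW (ENSDARG00000045677) at 0.81, the protease gene c6ast4 (ENSDARG00000052578) at 0.88, ela2l at 0.94, prss1 at 1.00 and SYCN (ENSDARG00000103687), whose product sits in zymogen granules, at 1.00. OPN1SW had 1 and 5 counts in CDT libraries and 2 and 2 in normal libraries, against 69 and 59 in WT, but 18991 and 17354 in rpgrip1l-/- larvae, against 15276 and 19377 in WT larvae. Of the 5 genes themselves, ctrb.1 lay 0.11 and prss59.1 0.79 from their median course.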

How the data were processed

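The deposited values are counts per gene, not normalized, made by the authors with Trim Galore 0.4.4 (trimming), STAR 2.7.3a (alignment, GRCz11) and HTSeq 0.12.3 (assignment to genes, default settings). The 5 counters of unassigned reads were left out; 42.5% to 44.3% of reads fell on genes. Gene symbols, spelled as the table of names gives them, cover 28988 of 32057 identifiers. Counts were tested with edgeR 4.0.16 in R 4.3.3 (TMM scaling, filterByExpr by group, quasi-likelihood test, Benjamini-Hochberg adjustment over all genes tested, threshold 0.05). The 6 libraries at 2 dpf were fitted together (3 residual degrees of freedom), the 4 at 5 dpf apart (2), and ages were compared in a fit of all 10 libraries (5). Alternatives were DESeq2 1.42.0, other scalings, filters and fits, and leaving out each library. Replicates differed by 2.71 to 7.28 times counting noise (chi-square per degree of freedom), so none is a copy. The genes and lists were chosen with earlier results of these data known. Named are all 5 genes, secretory genes with a mean of at least 5 CPM over the 10 libraries (1 such gene counts in the list totals but is not reported here), 5 transcription factor genes fixed by name, and the 8 genes of most similar course. Lists matched 22 of 36 secretory, 10 of 15 transcription factor, 9 of 15 endocrine, 15 of 18 liver, 13 of 16 intestine and 16 of 22 other tissue names. Sequences and coordinates were not used here (the RefSeq table gave only which genes are neighbours), so the promoter motif search that was planned was not run.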

Additional observations from a re-analysis of the deposited data

Results flagged for a closer look

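The difference between rpgrip1l-/- and WT was itself different at 5 dpf and at 2 dpf for 10 of 19 other secretory and transcription factor genes tested, by an interaction term in the edgeR fit of all 10 libraries (adjusted p under 0.05), against 23.4% of all 21016 genes tested. The 2 dpf difference was taken as the mean of CDT and normal embryos. In all 10 the log2 difference at 5 dpf was less negative than at 2 dpf, by 6.95 for prss59.2, 6.11 for amy2a, 4.97 for ela3l, 4.31 for amy2al2, 4.22 for cela1.4, 4.21 for PLA2G1B, 3.14 for ela2, 3.12 for ela2l, 2.89 for prss1 and 1.81 for CPB1. The values of amy2a, cela1.4, PLA2G1B, amy2al2 and ela3l rest on at most 4 counts in any 2 dpf mutant library and depend on the fit. That of prss59.2, the largest, rests on at most 5 counts in any of these libraries. Both amy2a and cela1.4 had too few counts to be tested at 2 dpf alone. As such genes entered the fit only through groups where they are high, the count of 10 is a description and supports nothing about the list. All 10 were secretory genes, and no transcription factor gene passed the threshold. CPA1 (ENSDARG00000021339), with 0.72, had an adjusted p of 0.0867. NR5A2, with −0.93 (adjusted p = 0.0520), and PTF1A, with −1.03 (adjusted p = 0.0994), went the other way. Of the 19 genes, 15 had a positive difference. The genotype comparisons at the ages share no library.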

How the results depend on the processing

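The lower level of the 5 genes at 5 dpf kept its direction in every alternative, but not its call. All 5 genes were called with edgeR without a filter, with a minimum of 10 counts in every library, under scaling by library size alone or the upper quartile, in the fit of all 10 libraries and with the replicate block, and DESeq2 called 0. Leaving out 1 library, which leaves a group with 1 that is assumed to vary like the others, gave 2 to 5 genes. For the secretory list at 5 dpf the count was 0 with DESeq2 and 6 to 16 with 1 library left out. At 2 dpf the stricter minimum of 10 counts left 3 secretory genes tested, of which 3 were called in CDT embryos (2 lower, 1 higher) and 2 in normal embryos, and left none of the 5 genes, so it gives no value for them at 2 dpf or between ages. For the difference between CDT and normal embryos, neither this minimum nor the fit of only the 4 libraries compared left any of the 5 genes, and 0 were called in every other setting, as counts of 0 or 1 allow no other outcome. The fitted medians of the 5 genes at 2 dpf were −8.33 in CDT and −9.18 in normal embryos with DESeq2, −8.34 and −9.55 with library size alone, and −9.71 in normal embryos with only the 4 libraries compared, and the rise over normal embryos was 15.01 with DESeq2. With 1 library left out the CDT median ran from −9.81 to −8.57, the normal median from −9.93 to −9.82, and the rise of mutants over CDT embryos from 13.86 to 15.68. The WT rise stayed between 6.59 and 6.84. Library size alone put the median of all genes at 0.48 in CDT and 0.46 in normal embryos, against 0.03 and 0.01 with TMM. For single named genes, 1 value reversed: amy2al2 at 5 dpf had a log2 fold change of 0.0067 without rpgrip1l-/- replicate 2, and of −1.22 without replicate 1. Across 24 genes at 5 dpf, 29 values lost and 7 gained a call, 18 of the losses with DESeq2 and 10 without WT replicate 1. Replicate numbers do not pair the libraries (correlations of same-numbered deviations −0.05 to 0.03). With the replicate block 5 of the 5 genes and 16 secretory genes were called at 5 dpf, 0 of the 5 genes between CDT and normal embryos, and the 2 dpf medians were −8.64 and −9.87; it changed no call of the 5 genes. Depth limits the 2 dpf folds, where 1 read is worth 0.0590 to 0.0929 CPM in mutants.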
